A study of Mus musculus with 55 samples.

Results

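The genes described here are Serpina3g, a protease inhibitor, and 8 genes of the interferon response, which are Ifit1, Ifit3, Oasl2, Bst2, Isg15, Usp18, Irf7 and Ifi27. They are 9 of the 45318 gene identifiers in the count tables and 9 of the 18283 genes that had enough counts to be tested, so that every member passed the low-count filter. The members were chosen with earlier results of the same mice known. Serpina3g was selected on its measured read counts in susceptible (SUS) and resilient (RES) mice, whose difference had opposite signs in the 2 housings. For Serpina3g the differences that involve these groups one by one are therefore given as a description, without a test.

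RNA came from the ventral dentate gyrus of single male C57/BL6J mice that were placed at 21 days of age in standard housing (SH) or an enriched environment (EE) for 8 weeks. Mice were then left unstressed as controls or went through 10 days of chronic social defeat stress (CSDS), in which a larger aggressor mouse attacks the test mouse, and the tissue was taken at 90 days of age. Defeated mice were sorted afterwards by social interaction into RES mice, which approached an aggressor, and SUS mice, which avoided it, so that phenotype was observed and not assigned. The groups were SH control (n = 10), SH RES (n = 7), SH SUS (n = 10), EE control (n = 9), EE RES (n = 9) and EE SUS (n = 9), none of which carried a transgene or received a drug. The 54 mice gave 55 libraries, since EE control mouse 9 was sequenced in 2 runs that were summed. Median totals per mouse lay between 20336643 counts in EE SUS and 22632098 in EE RES mice, and single mice had 16760009 to 24426804 counts, with 45872357 in the mouse of 2 runs.

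Type I interferons are secreted proteins that bind a receptor at the cell surface and act through JAK kinases and STAT proteins. With IRF9, the STAT proteins form a complex that binds interferon-stimulated response elements in promoters and switches on antiviral genes. In brain, microglia, endothelial cells, astrocytes and neurons can all respond, and a low tonic level of these genes is found without infection. Interferon gamma acts through a different promoter element, the gamma-activated sequence. Serpina3g, also called Spi2A, belongs to the serpin family and inhibits cysteine and serine proteases, and it is induced by interferon gamma in immune cells.

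The promoters show what several members share in sequence. RefSeq promoters of GRCm38.p6, which span 250 bases before to 50 bases after the start of a gene, matched 7 of the 9 members by symbol, and no promoter was matched for Ifi27 or Usp18. The core of the interferon-stimulated response element, spelled GAAA, 2 bases of any kind and GAAA again and here called the GAAA repeat, was searched on both strands and stood in the promoters of Ifit1, Ifit3, Isg15 and Bst2. It stood in 3.44% of all 32841 promoters of the same length. The letters TTCNNNGAA, which read alike on both strands and form the core of the gamma-activated sequence, stood in the promoters of Serpina3g and Bst2 and in 8.30% of all promoters. A match is a description of the letters only. Stretches of 100 bases before the start are printed in gene sense for the 5 members with a match, with every match in capitals, to show how the matches are placed.
Ifit1, chr19:34640739-34640838, plus strand: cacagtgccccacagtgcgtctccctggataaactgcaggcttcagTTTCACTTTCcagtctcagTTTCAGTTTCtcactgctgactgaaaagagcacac
Ifit3, chr19:34583359-34583458, plus strand: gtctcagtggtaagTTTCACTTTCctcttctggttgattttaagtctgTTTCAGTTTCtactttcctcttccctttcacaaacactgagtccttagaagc
Isg15, chr4:156200849-156200948, minus strand: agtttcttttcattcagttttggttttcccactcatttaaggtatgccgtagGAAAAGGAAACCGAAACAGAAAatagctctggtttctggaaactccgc
Bst2, chr8:71537553-71537652, minus strand: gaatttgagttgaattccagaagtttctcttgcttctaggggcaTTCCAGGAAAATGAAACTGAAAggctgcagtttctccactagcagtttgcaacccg
Serpina3g, chr12:104236047-104236146, plus strand: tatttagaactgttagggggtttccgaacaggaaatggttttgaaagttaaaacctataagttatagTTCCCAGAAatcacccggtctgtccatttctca

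Ifit1 and Ifit3, neighbours on chromosome 19, each held the same pair of matches on the opposite strand. These were TTTCACTTTC at -104 and -156 and TTTCAGTTTC at -85 and -122. Positions are counted from the RefSeq start of each promoter, which can differ from the GENCODE gene coordinates printed below. Isg15 held 3 matches that overlapped one another, beginning at -78, -72 and -66. Bst2 held 2 overlapping matches at -130 and -124, and its TTCNNNGAA match at -136 ran into the first of them. Serpina3g held 1 TTCNNNGAA match at -33. Neither motif was found in the promoters of Irf7 and Oasl2.

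Levels are given as TMM-normalised CPM, which are read counts scaled to the size of each library, and for comparisons between genes as CPM per kilobase of exon. Per kilobase, Ifi27 was the most abundant member, with a mean of 16.9 CPM per kilobase over the 54 mice, followed by Ifit3 (2.99), Bst2 (1.95) and Serpina3g (1.25). Ifit1 (0.767), Isg15 (0.550), Oasl2 (0.354), Irf7 (0.333) and Usp18 (0.282) were lower. The counts behind these values were small for some members. Isg15 had between 1 and 17 counts per mouse (median 9) and Usp18 between 8 and 30 (median 17), against 376 to 1318 for Ifi27. Among the 8 interferon genes, fold changes of Isg15 and Usp18 had the largest standard errors, and those of Serpina3g were larger still in all 13 comparisons.

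The members also differed in how much they varied between mice of a group. The SD of the log2 level within groups was 0.83 for Serpina3g, 0.45 for Isg15 and 0.41 for Usp18, and it lay between 0.18 (Ifi27) and 0.32 (Irf7) for the other 6 genes. Over the 54 mice, Serpina3g covered a 12.5-fold range and Isg15, at its low counts, a 16.8-fold range, against 1.82-fold for Ifi27.

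The tissue was checked against marker genes. Those of dentate granule cells (Prox1, Dsp, C1ql2, Tdo2 and Lct, with C1ql2, at 107 CPM, the most abundant per kilobase) were present in every mouse, but their summed level ranged from 299 CPM in EE control mouse 5 to 698 CPM in EE control mouse 8. Markers of neighbouring CA1 pyramidal cells (Wfs1, Fibcd1, Pou3f1, Mpped1 and Spink8), which were listed after the relations of Serpina3g had been seen, summed to between 64.5 CPM in SH control mouse 4 and 258 CPM in SH control mouse 3. SH control mouse 3 and EE control mouse 5 stood apart, each with the highest CA1 and the lowest granule cell level of its group. Of the lymphocyte markers, Cd3e, Cd3d, Cd8a, Nkg7 and Ms4a1 had no count in at least 27 of the 54 mice, whereas Trac, at a mean of 0.619 CPM, and Ighm, at 5.68 CPM, were the most abundant per kilobase of the T and B cell lists and passed the low-count filter. In bulk tissue, fewer cells of a type and less RNA per cell cannot be told apart.

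Serpina3g (chr12:104236245-104241939 of GRCm38) had its highest group median in EE RES mice and its lowest in SH RES mice. In SH it ranged from 0.829 to 7.39 CPM (median 1.69) in control mice, from 0.921 to 3.52 CPM (median 1.04) in RES mice and from 0.861 to 5.93 CPM (median 2.77) in SUS mice. In EE it ranged from 0.591 to 7.32 CPM (median 1.54) in control mice, from 2.09 to 5.06 CPM (median 3.77) in RES mice and from 1.05 to 4.12 CPM (median 2.49) in SUS mice. The order of medians was thus EE RES, SH SUS, EE SUS, SH control, EE control and SH RES, and the ranges of all neighbours in this order overlapped. The EE RES group was the most compact, with a 2.42-fold range, whereas the EE control group spanned 12.4-fold.

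In SH, 9 of 10 SUS mice were above the median of RES mice, and SUS against RES mice had a log2 fold change of 0.92 (SE 0.42). In EE, 8 of 9 SUS mice were below the median of RES mice, and the log2 fold change was -0.66 (SE 0.37). The difference of the 2 values, EE minus SH, was -1.57 (SE 0.56). These are the values on which the gene was chosen, and the ranges of SUS and RES mice overlapped in both housings. Against EE control mice, all 9 EE RES mice were above the control median, at a log2 fold change of 0.51 (SE 0.36), while EE SUS mice were at -0.15 (SE 0.38). Against SH control mice, SH SUS mice were at 0.31 (SE 0.36) and SH RES mice at -0.60 (SE 0.43). All 9 EE RES mice were also above the median of SH RES mice (log2 fold change 1.23, SE 0.42), and 3 of 9 EE SUS mice were above that of SH SUS mice (-0.34, SE 0.37).

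**Figure D1:**
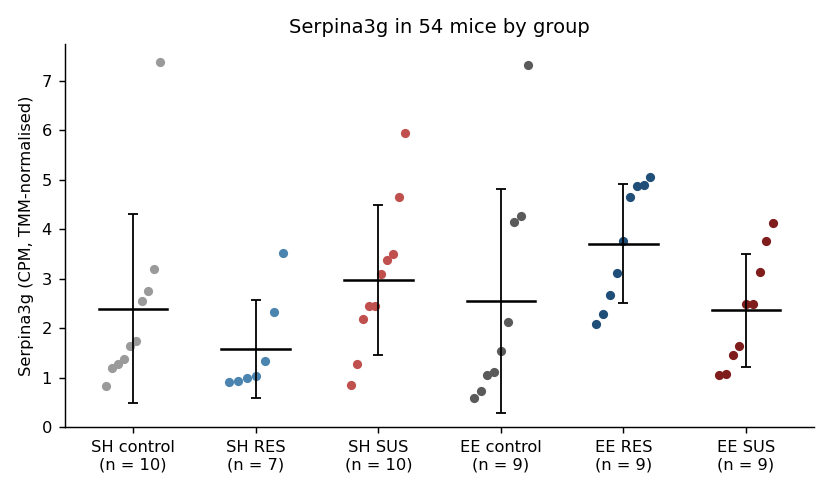
Serpina3g in CPM (vertical axis, linear, from 0) in each of the 54 mice, by group (horizontal axis); points are mice, sorted by level within a group, horizontal bars are group means and vertical bars are ± SD. EE RES mice sit between 2.09 and 5.06 CPM, and SH RES mice between 0.921 and 3.52 CPM.

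Comparisons that the selection did not rest on gave no difference past the threshold. Between unstressed mice, Serpina3g was 2.55 ± 2.26 CPM (SD, n = 9) in EE and 2.40 ± 1.91 CPM (SD, n = 10) in SH, a log2 fold change of 0.12 (SE 0.37, adjusted p = 0.991, edgeR). Defeated against control mice, averaged over housings and phenotypes, had a log2 fold change of 0.02 (SE 0.23, adjusted p = 0.998, edgeR), and 25 of the 35 defeated mice were above the median of the 19 control mice.

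Single mice carried part of these values. Without SH control mouse 3, which had the 7.39 CPM, the log2 fold change of SH SUS against SH control mice in limma went from 0.43 to 0.66 and that of SH RES mice from -0.49 to -0.26. Without EE control mouse 9, the value of EE SUS against EE control mice in limma was 0.32, compared with 0.08 for all mice and -0.15 in edgeR. For EE RES against EE control mice it was 1.06 without that mouse, compared with 0.83 for all mice in limma and 0.51 in edgeR. Serpina3g in EE against SH control mice, at 0.02 in limma, ranged from -0.22 without EE control mouse 9 to 0.25 without SH control mouse 3, so that it had no stable sign. With 1 mouse left out at a time, the values for SUS against RES mice ranged from 0.77 to 1.12 in SH and from -0.88 to -0.61 in EE, which describes the values that the gene was selected on and is no support for them.

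Serpina3g varied together with a set of other genes across mice. After the mean of each group was subtracted, the tested genes with the highest Pearson correlations to it over the 54 mice included Cpne7 (0.86), a calcium-dependent membrane-binding protein, Igfbp3 (0.85), a carrier of insulin-like growth factors, Pde11a (0.85), a cyclic nucleotide phosphodiesterase, and Gabra3 (0.85), a GABA-A receptor subunit. Over all 18282 other genes the median correlation was -0.01, and 3.51% of them were above 0.5. These correlations are descriptions over mice that share a dissection, with no test.

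The CA1 markers were listed after these correlations had been seen, so the values that follow describe the mice and are no independent support. Serpina3g and the mean log2 CPM of the 5 CA1 markers were related with r = 0.85 (Pearson) and rho = 0.83 (Spearman) over the 54 mice with group means removed, and within single groups r was between 0.69 and 0.97. Without EE control mouse 5 and SH control mouse 3, the mice farthest from the median of the CA1 level, r was 0.82. The single CA1 markers differed, with r = 0.81 for Spink8, 0.79 for Fibcd1, 0.70 for Mpped1, 0.46 for Pou3f1 and 0.05 for Wfs1. A list of 4 markers of CA3 pyramidal cells, made at the same time, had r = 0.22. Of the meningeal fibroblast markers, Dcn had r = 0.79 and the other 4 between -0.10 and 0.11. With the granule cell markers r was -0.63, and with markers of the choroid plexus, a ventricular tissue that makes Ttr, it was 0.56. The choroid plexus markers had a median log2 fold change of 2.41 for SUS against RES mice in SH and of 0.74 in EE. For EE RES against SH RES mice it was 2.15, and no choroid plexus marker passed the threshold in these comparisons. The summed CA1 level had a median of 141 CPM in EE RES, 90.1 CPM in EE SUS, 107 CPM in SH RES and 106 CPM in SH SUS mice, with overlapping ranges in all of them.

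**Figure D2:**
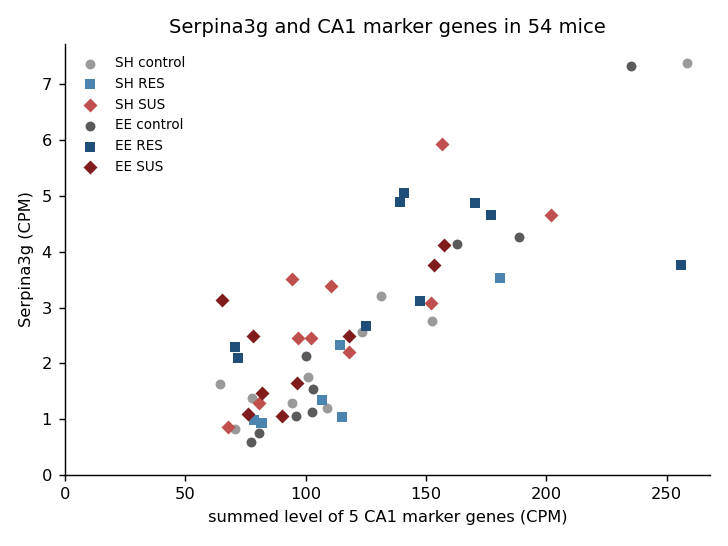
Serpina3g in CPM (vertical axis) against the summed level of 5 CA1 marker genes in CPM (horizontal axis) in 54 mice, both linear and from 0; each point is a mouse, with shape and color for its group. Mice with a higher CA1 level had more Serpina3g in every group (r within groups between 0.69 and 0.97 on log2 values).

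When the CA1 marker level was added to the model, the log2 fold change of Serpina3g for SUS against RES mice went from 0.92 to 0.67 in SH and from -0.66 to -0.15 in EE, and that of EE RES against SH RES mice from 1.23 to 0.72. With the granule cell level in its place, the values of Serpina3g were 0.62, -0.42 and 0.50. They were 0.85, -0.72 and 1.28 with the red cell level, 0.89, -0.69 and 1.17 with the endothelial level, and 0.80, -0.75 and 1.03 with the oligodendrocyte level. The part of tissue makeup in the levels of Serpina3g was not tested further.

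Among the other members, Ifi27 alone shared this pattern, with a correlation of 0.67 to Serpina3g over the 54 mice. For the remaining 7 interferon genes the correlation with Serpina3g was between -0.27 and 0.09. In the Serpina3 gene cluster on chromosome 12, only 2 of 10 listed paralogs had enough counts to be tested. These were Serpina3n, the serpin of reactive astrocytes, at 58.8 CPM, and Serpina3c at 0.522 CPM. Neither gene passed the test in any of the 13 comparisons, and their correlations with Serpina3g were -0.01 and 0.18. Cluster members resemble one another in sequence, and multimapping read pairs were not part of the gene counts, so levels within the cluster may be too low and are uncertain.

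For the 8 interferon genes, 13 comparisons were made in one edgeR model over all genes. None of the 8 passed an adjusted p of 0.05 in any of them by edgeR or limma with all mice, or by DESeq2 where it gave an adjusted p. DESeq2 gave none for Isg15, Usp18 and Irf7 in EE against SH over all phenotypes and in EE RES against SH RES mice. The background was small in most comparisons. The share of all 18283 genes that passed was 2.42% for EE against SH over all phenotypes, 0.273% for EE RES against SH RES mice, 0.0438% for defeated against control mice over both housings, 0.0328% for SH SUS against SH control mice, and 0.00547% each for EE against SH control mice and EE SUS against SH SUS mice. In the other 7 comparisons no gene passed.

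At an unadjusted p below 0.05 in edgeR, 3 of the 8 genes were higher in EE than in SH mice over all phenotypes. Of all genes, 17.6% had such a p there and 8.93% were higher with it. In defeated against control mice 1 of 8 was higher, where 4.81% of all genes had such a p and 2.42% were higher with it. All 8 genes had a fold change above 0 in the comparison of defeated and control mice, and 7 of 8 did in EE against SH, where 47.4% and 53.0% of all genes were above 0. The median log2 fold change of the 8 genes was 0.12 for defeat and 0.13 for EE, compared with -0.00276 and 0.00434 over all genes. The genes were listed with earlier results known, so these counts describe the list and do not test it.

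The other 11 comparisons each had between 0 and 2 of the 8 genes at an unadjusted p below 0.05. There were 2 in SH RES against SH control mice (3.51% of all genes) and 2 in EE RES against SH RES mice (16.0%), and none in SH SUS against SH control mice (2.78%). There was 1 gene each in EE SUS against EE control (7.90%), EE RES against EE control (7.91%), SH SUS against SH RES (4.88%), EE SUS against EE RES (3.52%), EE against SH control (5.02%) and EE SUS against SH SUS mice (7.36%), and 1 each in the housing difference of the SUS and RES contrast (4.84%) and of the defeat contrast (6.47%).

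The criterion of the study's methods, a limma p below 0.05 without adjustment and a fold change above 1.3, was met by 1 of the 8 genes in 5 comparisons. These were Ifit1 in SH RES against SH control mice (1.21% of all genes), Irf7 in EE RES against EE control mice (1.17%), Isg15 in EE against SH control mice (1.12%) and in EE against SH over all phenotypes (0.613%), and Ifit3 in the housing difference of the SUS and RES contrast (2.29%). It was met by none in SH SUS against SH control (0.930%), EE SUS against EE control (1.94%), SH SUS against SH RES (1.14%), EE SUS against EE RES (1.10%), EE RES against SH RES (3.24%), EE SUS against SH SUS (1.56%) and defeated against control mice (0.481%), or in the housing difference of the defeat contrast (1.68%).

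**Figure D3:**
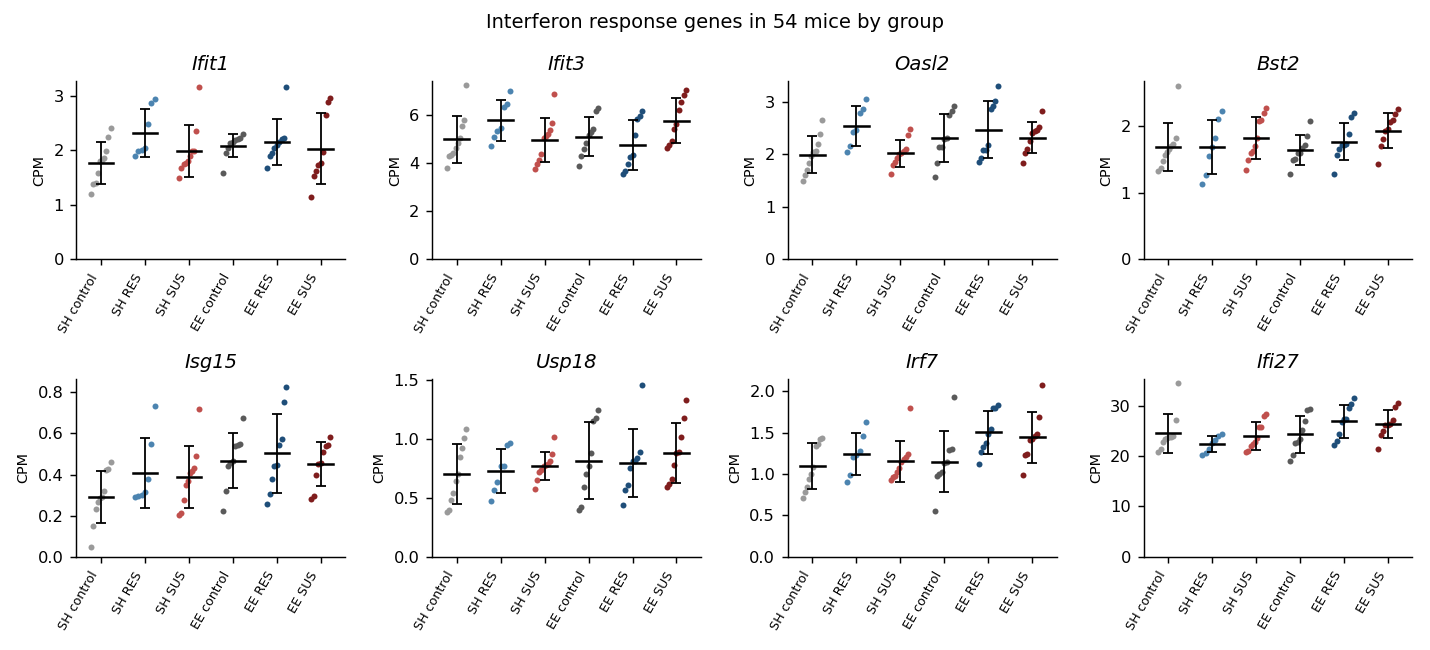
The 8 interferon genes in CPM (vertical axes, linear, from 0) in each of 54 mice by group (horizontal axes); points are mice, sorted by level within a group, horizontal bars are means and vertical bars ± SD. Groups overlap for every gene, and Isg15 stays at or below 0.828 CPM and Usp18 at or below 1.46 CPM in every mouse.

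Ifit1 and Ifit3 encode partner proteins that bind foreign RNA and block its translation. Ifit1 (chr19:34640871-34650009) was 1.20 to 2.40 CPM (median 1.81) in SH control, 1.90 to 2.93 CPM (median 2.04) in SH RES and 1.48 to 3.15 CPM (median 1.84) in SH SUS mice. All 7 SH RES mice were above the median of SH control mice, and 3 of them above every control mouse. The log2 fold change was 0.40 (SE 0.15, unadjusted p = 0.0121, adjusted p = 0.9999, edgeR), in a comparison where 3.51% of all genes had an unadjusted p below 0.05. In EE the groups had medians of 2.16 CPM in control, 2.09 CPM in RES and 1.75 CPM in SUS mice, and the EE SUS group was the widest, from 1.13 to 2.95 CPM.

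Ifit3 (chr19:34583531-34588731) had an opposite difference between SUS and RES mice in the 2 housings, in the other direction from Serpina3g. In SH, RES mice had 4.74 to 7.03 CPM (median 5.48) and SUS mice 3.78 to 6.89 CPM (median 5.10). In EE, RES mice had 3.54 to 6.20 CPM (median 4.35) and SUS mice 4.64 to 7.04 CPM (median 5.64). All 9 EE SUS mice were above the EE RES median, whereas 8 of 10 SH SUS mice were below the SH RES median. SUS against RES mice had a log2 fold change of -0.22 (SE 0.12, unadjusted p = 0.0783, adjusted p = 0.934, edgeR) in SH and 0.28 (SE 0.12, unadjusted p = 0.0222, adjusted p = 0.9997, edgeR) in EE, so that neither passed. The difference, EE minus SH, was 0.50 (SE 0.17, unadjusted p = 0.00498), and it did not pass after adjustment over all genes (adjusted p = 0.977, edgeR). In that comparison 4.84% of all genes had an unadjusted p below 0.05, and Ifit3 was 1 of the 8 interferon genes to do so.

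Ifit3 has a near-identical neighbour, Ifit3b, and reads shared by the copies make both values uncertain. Ifit3b was the gene most like Ifit3 across mice (r = 0.57, n = 54). Ifit3b had a mean of 3.02 CPM, against 5.21 CPM for Ifit3.

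Oasl2 (chr5:114896936-114912234) encodes an oligoadenylate synthetase-like antiviral protein. In SH it was 1.49 to 2.65 CPM (median 2.001) in control, 2.04 to 3.06 CPM (median 2.46) in RES and 1.62 to 2.49 CPM (median 2.02) in SUS mice. All 7 SH RES mice were above the SH control median (log2 fold change 0.35, SE 0.13, unadjusted p = 0.00718, adjusted p = 0.9999, edgeR), and 9 of 10 SH SUS mice were below the SH RES median (log2 fold change -0.32, SE 0.13, unadjusted p = 0.0128, adjusted p = 0.934, edgeR). In SUS against RES mice of SH, 4.88% of all genes had an unadjusted p below 0.05. The EE groups lay closer together, with medians of 2.29 CPM in control, 2.18 CPM in RES and 2.41 CPM in SUS mice. The comparisons of SH RES mice with SH control and with SH SUS mice share the SH RES mice and are not independent.

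Bst2 (chr8:71534255-71537456), which encodes tetherin, a membrane protein that holds budding virus at the cell surface, varied little between groups. Its medians lay between 1.59 CPM in EE control and 1.95 CPM in EE SUS mice, and single mice between 1.12 and 2.60 CPM. No comparison of Bst2 had an unadjusted p below 0.05 in edgeR, and the largest log2 fold change was 0.23 (SE 0.12, unadjusted p = 0.0596, adjusted p = 0.656, edgeR) for EE SUS against EE control mice.

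Isg15 (chr4:156199424-156200818) encodes a ubiquitin-like protein that is attached to other proteins in the interferon response, and Usp18 encodes the enzyme that removes it and also restrains the receptor. Isg15 had its lowest group median in SH control mice, at 0.287 CPM (range 0.0491 to 0.461), against 0.317 CPM (0.291 to 0.733) in SH RES and 0.389 CPM (0.203 to 0.719) in SH SUS mice. The EE groups had medians of 0.464 CPM (0.221 to 0.675) in control, 0.447 CPM (0.255 to 0.828) in RES and 0.458 CPM (0.282 to 0.585) in SUS mice. Of the 9 EE control mice, 8 were above the SH control median and 5 above every SH control mouse.

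The log2 fold change of Isg15 in EE against SH control mice was 0.62 (SE 0.26, unadjusted p = 0.0159, adjusted p = 0.860, edgeR), where 5.02% of all genes had an unadjusted p below 0.05. Over all phenotypes it was 0.38 (SE 0.15, unadjusted p = 0.0103, adjusted p = 0.137, edgeR), and 21 of 27 EE mice were above the median of SH mice. Counts on both strands gave 0.12 in place of 0.62 for the control mice. Usp18 (chr6:121245906-121270917) had medians between 0.674 CPM in SH control and 0.882 CPM in EE SUS mice, and no comparison had an unadjusted p below 0.05 in edgeR.

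Irf7 (chr7:141262706-141266481) encodes the transcription factor that amplifies type I interferon production. In EE it was 0.547 to 1.93 CPM (median 1.13) in control, 1.12 to 1.83 CPM (median 1.48) in RES and 0.985 to 2.07 CPM (median 1.42) in SUS mice. In SH the medians were closer, at 1.05 CPM in control, 1.22 CPM in RES and 1.11 CPM in SUS mice. In EE, 8 of 9 RES mice and 8 of 9 SUS mice were above the control median.

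Against EE control mice, Irf7 had a log2 fold change of 0.39 (SE 0.15, unadjusted p = 0.0138, adjusted p = 0.573, edgeR) for EE RES and 0.33 (SE 0.16, unadjusted p = 0.0387, adjusted p = 0.606, edgeR) for EE SUS mice. These comparisons share the EE control mice, and 7.91% and 7.90% of all genes had an unadjusted p below 0.05 in them. Defeated mice of both housings together were at 0.24 (SE 0.10, unadjusted p = 0.0148, adjusted p = 0.925, edgeR), with 27 of 35 defeated mice above the control median. EE against SH mice over all phenotypes were at 0.22 (SE 0.09, unadjusted p = 0.0185, adjusted p = 0.176, edgeR). The difference of the defeat effect between housings was 0.23 (SE 0.19, adjusted p = 0.847, edgeR), so that a defeat effect of Irf7 particular to EE was not shown. Irf7 overlaps Phrf1 on the opposite strand, and the values rest on the strand-specific counts.

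Ifi27 (chr12:103434211-103440239), which encodes an interferon-inducible mitochondrial protein, was the most abundant and the least variable member. It was 20.8 to 34.6 CPM (median 23.7) in SH control, 20.2 to 24.3 CPM (median 22.7) in SH RES and 20.8 to 28.3 CPM (median 23.2) in SH SUS mice. In EE it was 19.0 to 29.4 CPM (median 23.4) in control, 22.2 to 31.6 CPM (median 27.3) in RES and 21.3 to 30.6 CPM (median 26.2) in SUS mice. Of the 9 EE RES mice, 7 were above every SH RES mouse.

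The log2 fold change of Ifi27 in EE RES against SH RES mice was 0.27 (SE 0.09, unadjusted p = 0.00330, adjusted p = 0.116, edgeR), in a comparison where 16.0% of all genes had an unadjusted p below 0.05. Over all phenotypes EE mice were at 0.13 (SE 0.05, unadjusted p = 0.00862, adjusted p = 0.126, edgeR). Without SH control mouse 3, which had the highest Ifi27 of the SH control mice, this value was 0.15 in limma and passed, with an adjusted p of 0.0385. With the granule cell marker level in the model it was 0.03 (adjusted p = 0.831, edgeR), and the EE RES against SH RES value was 0.09. Ifi27 had a correlation of -0.70 with the granule cell markers over the 54 mice, and the genes most like it were Atp6ap1, Ppp2r2b, Atp5b, Ldha and Atp6v0c (r between 0.81 and 0.83), several of which encode parts of ATPases and of energy metabolism. Its correlations with the other 7 interferon genes were between -0.16 and 0.26.

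Those 7 genes were weakly related among themselves. All 21 pairs had a Pearson correlation above 0 over the 54 mice with group means removed, but the correlations were between 0.02 and 0.47, with a median of 0.26, and at these counts they are a description only. The highest were those of Usp18 with Oasl2 (0.47), Ifit1 (0.47) and Ifit3 (0.46). The 4 genes with a GAAA repeat in the promoter had correlations between 0.18 and 0.35. Apart from Serpina3g and Ifi27, each member had at most 6 genes in the whole table with a correlation above 0.5.

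The rest of the pathway was followed with 10 lists of 128 genes, of which 96 were tested. None of the 11 interferon ligands, among them Ifnb1 and Ifng, passed the low-count filter. No ligand had more than 2 counts in any mouse, and 4 of them had 0 counts in all 54, which at the median total allows up to 0.139 CPM per mouse (3 counts, counting error only). Receptors and signal transducers were all tested (10 of 10), with Jak1, the kinase of the receptors, at 34.1 CPM per kilobase and Ifngr2, a receptor chain for interferon gamma, at 17.4. No gene of this list passed in any of the 13 comparisons, and the smallest p for defeated against control mice was that of Irf9, at a log2 fold change of 0.08 (SE 0.05, adjusted p = 0.987, edgeR).

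No gene passed among the other interferon regulatory factors (6 of 7 tested) or the sensors of nucleic acids and their adaptors (13 of 14 tested). Irf3, which acts with the kinase Tbk1 downstream of the sensors, was at 0.11 (SE 0.03, adjusted p = 0.0749, edgeR) in EE against SH mice, and Tbk1 at -0.02 (SE 0.02). The negative regulators of cytokine signalling (5 of 5 tested, among them the phosphatases Ptpn2 and Ptpn6) also had no gene past the threshold, and neither did the GTPases and chemokines induced by interferon gamma (14 of 17 tested). For Gbp5, a GTPase of this list, the log2 fold change of defeated against control mice was 0.26 (SE 0.10, unadjusted p = 0.0121, adjusted p = 0.897, edgeR).

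Across all lists, 6 of the 96 genes were higher in EE than in SH mice over all phenotypes at an adjusted p below 0.05 and none was lower, where 0.881% of all genes were higher and 1.54% lower. At an unadjusted p below 0.05, 18 of the 96 were higher and 2 lower, against 8.93% and 8.70% of all genes. limma called 5 of the 96 and DESeq2 3, of which Parp14 and B2m were among the 6. Of the 6, 5 belong to the 32 tested type I interferon effectors, whose median log2 fold change was 0.10, with 28 of 32 above 0, compared with 0.00434 over all genes.

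The 5 effectors that rose in EE were Ifi44, Parp14, Rtp4, Phf11d and Sp100. Their calls were not equally stable. With 1 mouse left out, in limma in place of edgeR, between 1 and 6 pathway genes passed, and of the 5 Sp100 passed least often. Ifi44, an antiviral protein of the cytosol, had medians of 0.642, 0.518 and 0.401 CPM in SH control, RES and SUS mice and of 0.688, 0.873 and 0.754 CPM in the corresponding EE groups, and 26 of 27 EE mice were above the median of SH mice. Its log2 fold change was 0.46 (SE 0.11, adjusted p = 0.0168, edgeR). Parp14, an ADP-ribosyltransferase, had medians between 4.49 and 4.77 CPM in the SH groups and between 5.22 and 5.85 CPM in the EE groups (log2 fold change 0.21, SE 0.05, adjusted p = 0.0204, edgeR). For Rtp4, an interferon-induced receptor chaperone, 24 of 27 EE mice were above the SH median (0.30, SE 0.08, adjusted p = 0.0336, edgeR).

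Phf11d, a zinc finger protein, was at 0.43 (SE 0.12, adjusted p = 0.0417, edgeR) and Sp100, a nuclear body protein, at 0.22 (SE 0.06, adjusted p = 0.0489, edgeR). Counts of Ifi44 and Phf11d were low, between 6 and 24 and between 4 and 25 per mouse. The sixth gene, B2m, the light chain of MHC class I, was the most abundant of its list at 57.2 CPM per kilobase. B2m had medians of 47.5, 48.9 and 47.1 CPM in SH control, RES and SUS mice. In the corresponding EE groups they were 49.1, 49.7 and 50.7 CPM. Above the SH median of their phenotype were 9 of 9 EE control, 6 of 9 EE RES and 7 of 9 EE SUS mice. Over all phenotypes the log2 fold change of B2m was 0.13 (SE 0.04, adjusted p = 0.0396, edgeR). Of the other 9 genes of class I presentation none passed in edgeR, and 1 passed in DESeq2, the peptide transporter subunit Tap2 (log2 fold change 0.13, SE 0.04, adjusted p = 0.0628 in edgeR), which is named after its values were seen. B2m held a GAAA repeat at -139, and promoters were matched for 5 of the 7 pathway genes that passed in any comparison, with no such repeat in the other 4.

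**Figure D4:**
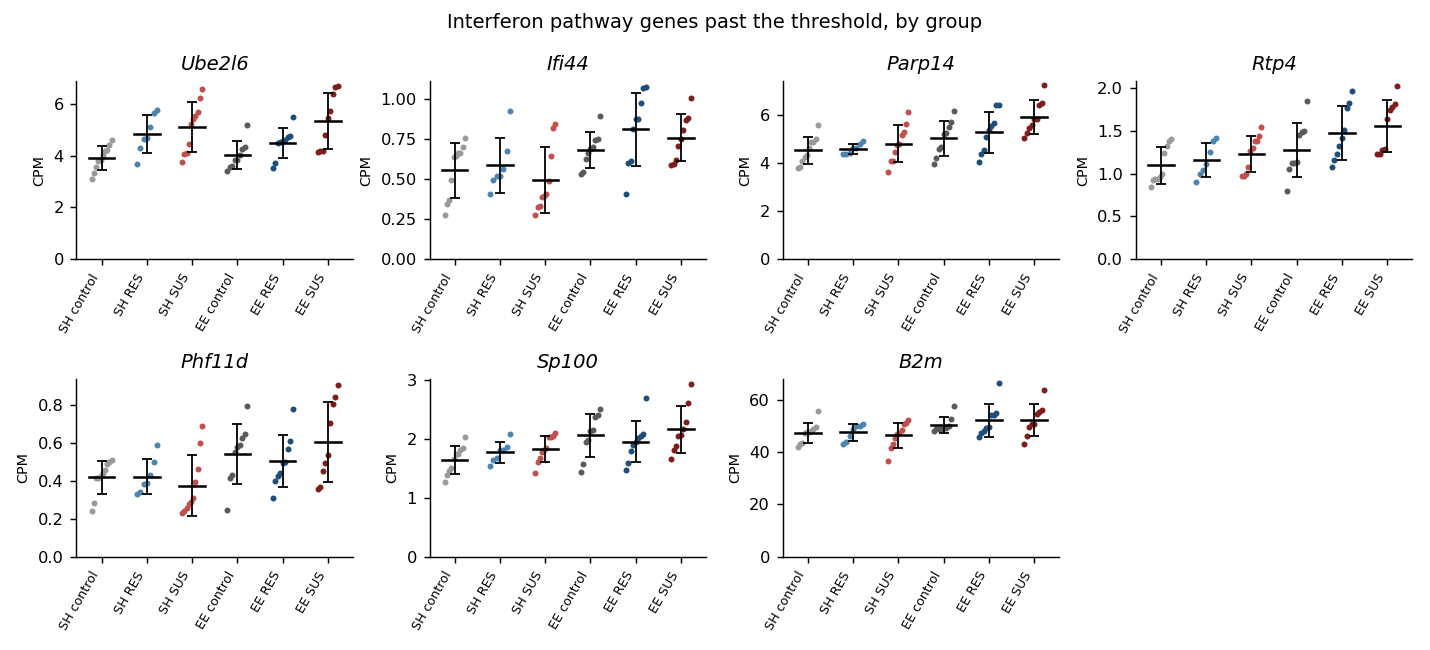
The 7 pathway genes with an adjusted p below 0.05 in a comparison, in CPM (vertical axes, linear, from 0) in each of 54 mice by group (horizontal axes); points are mice, sorted by level within a group, horizontal bars are means and vertical bars ± SD. Ube2l6 is higher in RES and SUS mice than in control mice of both housings, and the other 6 are higher in EE than in SH mice, with overlapping ranges.

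Markers of other cells moved in the same comparison. In EE against SH mice, Mbp (0.25) of oligodendrocytes, Flt1 (0.23) of endothelial cells and Igf2 (0.31) of meningeal fibroblasts were higher, and Dsp (-0.30) and Tdo2 (-0.28) of granule cells were lower, with adjusted p-values between 0.0186 and 0.0468 in edgeR. These were 1 of 5 endothelial, 1 of 5 meningeal and 2 of 5 granule cell markers beside Mbp, and none of the 6 microglia or 5 astrocyte markers passed. Endothelial markers, with Cldn5 the most abundant per kilobase, summed to a median of 141 CPM in SH control and 163 CPM in EE SUS mice. B2m had a correlation of 0.74 with the microglia markers, and Parp14 one of 0.53 with the endothelial markers over the 54 mice.

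With the granule cell level in the model, 1 pathway gene passed for EE against SH, and none passed with the endothelial or the oligodendrocyte level. With these 3 levels the fold change of Parp14, 0.21 without them, was 0.12 to 0.17, that of Rtp4 (0.30) was 0.23 to 0.27, and that of Phf11d (0.43) was 0.33 to 0.41. Ifi44 (0.46) was at 0.45 to 0.46, Sp100 (0.22) at 0.18 to 0.23 and B2m (0.13) at 0.10 to 0.15. A covariate that differs between the housings also takes up part of a housing effect, and the part of the cell types in these differences was not tested further.

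Genes of ISG15 conjugation (4 of 4 tested) form the enzyme chain that attaches the ISG15 protein, in which Uba7 activates it, Ube2l6 carries it and Trim25 is a ligase. Ube2l6 rose in defeated mice. It was 3.09 to 4.60 CPM (median 3.95) in SH control, 3.67 to 5.78 CPM (median 4.70) in SH RES and 3.74 to 6.57 CPM (median 5.32) in SH SUS mice. In EE it was 3.39 to 5.19 CPM (median 3.85) in control, 3.54 to 5.49 CPM (median 4.57) in RES and 4.13 to 6.71 CPM (median 5.45) in SUS mice. In SH 15 of 17 defeated mice and in EE 16 of 18 were above the median of their controls. The log2 fold change over both housings was 0.32 (SE 0.07, adjusted p = 0.0269, edgeR), and it was the only 1 of the 96 pathway genes to pass for defeat, where 0.0438% of all genes were higher at this threshold. DESeq2 also called Ube2l6, whereas limma and a model with the replicate number as a block did not. The housing difference of Ube2l6 over all phenotypes was -0.00 (SE 0.06).

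Ube2l6 is also made in maturing red cells, and red cell genes moved with it. All 5 red cell markers (Hbb-bs, Hbb-bt, Hba-a1, Hba-a2 and Alas2) were higher in defeated mice, among them Hbb-bs, the most abundant per kilobase, at a log2 fold change of 1.09 (SE 0.15) and Alas2, the heme enzyme of red cells, at 1.13 (SE 0.17). They summed to a median of 82.7 CPM in SH control, 167 CPM in SH RES and 215 CPM in SH SUS mice, and of 82.7 CPM in EE control, 147 CPM in EE RES and 183 CPM in EE SUS mice. Ube2l6 had a correlation of 0.69 with these markers over the 54 mice with group means removed, compared with 0.06 for microglia and 0.11 for endothelial markers. With the red cell level in the model, its log2 fold change for defeat went from 0.32 to 0.03 (adjusted p = 0.999, edgeR). Red cell genes are themselves higher in defeated mice, and the order of these changes was not tested.

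The interferon genes near Ube2l6 in function did not pass in the same comparison. Uba7 was at 0.06 (SE 0.07) and Trim25 at 0.04 (SE 0.06) in defeated against control mice, and Isg15 itself at 0.26 (SE 0.16, adjusted p = 0.987, edgeR). Among the effectors, 8 of 32 had an unadjusted p below 0.05 with a higher level in defeated mice, where 2.42% of all genes did, and none was lower, against 2.39% of all genes. The smallest p was that of Rsad2, which encodes the antiviral enzyme viperin, at 0.47 (SE 0.12, unadjusted p = 0.000305, adjusted p = 0.310, edgeR), followed by Samd9l at 0.18 (SE 0.06, adjusted p = 0.627, edgeR). Ifitm3, a membrane protein that hinders virus entry, was at 0.29 (SE 0.09, adjusted p = 0.687, edgeR).

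**Figure D5:**
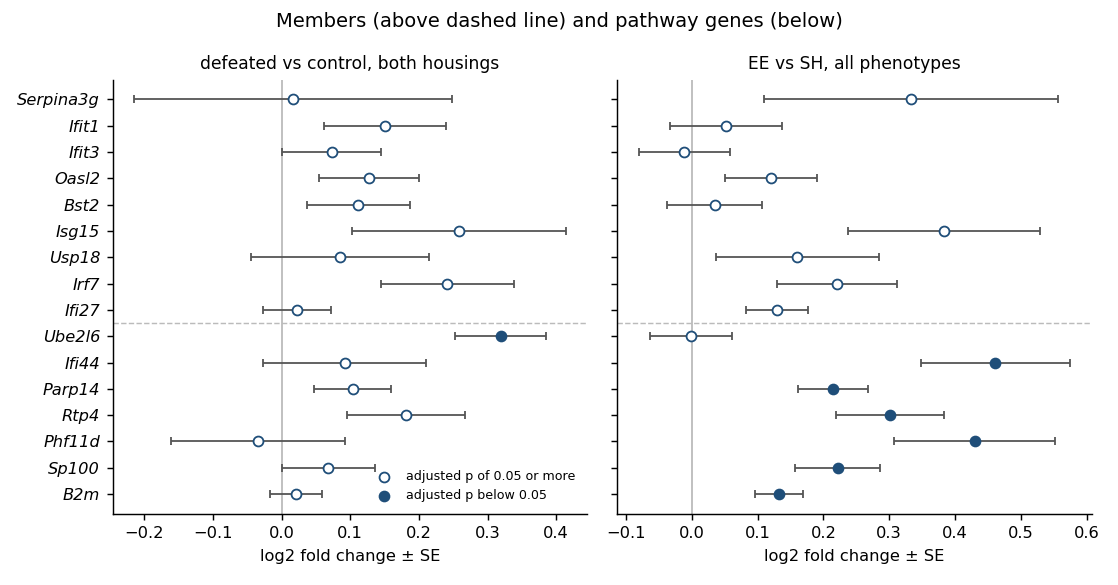
Log2 fold changes ± SE (horizontal axes) of the 9 members and of the 7 pathway genes that passed a comparison, from edgeR, for defeated against control mice (left) and EE against SH mice (right); filled points have an adjusted p below 0.05. No member is filled in either panel, Ube2l6 is filled for defeat, and Ifi44, Parp14, Rtp4, Phf11d, Sp100 and B2m are filled for housing.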

How the data were processed

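Gene-level raw counts, unstranded and for each strand, were deposited by the authors for every library in the layout of STAR gene counts. Submitters' processing notes name STAR, Picard and mm10, whereas the methods name featureCounts. Reverse-strand counts were used, since the forward strand held only 3.51% to 4.13% of stranded counts. Read pairs without a single gene, among them the multimapping ones (8.70% to 12.1%), were not used. Names and coordinates came from GENCODE M21.

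Counts were fitted over 6 groups with TMM, filterByExpr and the quasi-likelihood test of edgeR 4.0.16 in R 4.3.3, with Benjamini-Hochberg adjustment over all 18283 genes. limma 3.58.1 (voom) and DESeq2 1.42.0 were alternatives. Log2 CPM for correlations had a prior count of 2. Standard errors came from the fitted weights and quasi-dispersion. The edgeR model was tried on simulated counts with log2 changes of 1 in SH RES against SH control mice. It recovered 96.0% of 199 changed genes and called 7 others. Smaller changes, such as most of those reported here, were not simulated. The methods state that mice came from several litters and that EE mice lived in larger groups per cage than SH mice. The labels name no litter, cage or batch, so mice were treated as independent. Mice of the same cage may be alike, which the comparisons of EE and SH do not take into account. The p-values measure the spread between these mice.

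Members and lists were chosen with earlier results of these data known. Genes named were the members, in each pathway list the 2 most abundant per kilobase, the 2 with the smallest p for defeat and up to 5 with an adjusted p below 0.05, the 5 genes most like each member and the most abundant marker of each list. CA1 markers, and the other markers and genes named outside this rule, were chosen after values had been seen. Some genes that the rule or the marker lists hold are not reported here.

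Alternatives were size factors, no filter, other tests, unstranded counts, a robust spread, sample weights, the first run of EE control 9, the replicate number as a block, only defeated groups, marker levels as covariates and each mouse left out.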

Additional observations from a re-analysis of the deposited data

Results flagged for a closer look

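In 11 of 96 pairs of a gene and a group, 1 mouse lay far from the rest of its group, by a gap to its nearest neighbour that was large against the range of the group. Nominally about 1 in 20 such pairs pass this rule if values are normal and independent. The rate in these data was not measured, and several of the 11 pairs share a mouse. Of the 9 members, 6 had such a mouse.

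SH control mouse 3 was high in 3 members, with Serpina3g at 7.39 CPM (next mouse 3.20), Bst2 at 2.60 CPM (next 1.82) and Ifi27 at 34.6 CPM (next 27.1). The same mouse had 258 CPM of summed CA1 markers and 402 CPM of granule cell markers. EE RES mouse 5 was high in Ifit1 at 3.16 CPM (next 2.23) and Usp18 at 1.46 CPM (next 0.895). Ifit1 was also high in SH SUS mouse 3 at 3.15 CPM and low in EE control mouse 9 at 1.57 CPM, the mouse of 2 runs. Irf7 was high in SH SUS mouse 2 at 1.80 CPM (next 1.24). Of the pathway genes, Sp100 was high in EE RES mouse 1 at 2.70 CPM, and B2m in EE RES mouse 9 at 66.4 CPM and EE control mouse 1 at 57.6 CPM.

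Without EE RES mouse 9, the log2 fold change of B2m between housings was 0.11 in limma. For the 8 interferon genes, no interaction passed an adjusted p of 0.05 in edgeR.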

How the results depend on the processing

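No interferon member passed in any comparison under any alternative with all mice, the replicate block included (0 of 8). With 1 mouse left out, the count for EE against SH over all phenotypes was 0 to 1 (1 without SH control mouse 3). Signs of the members' fold changes changed in 64 of 1683 values under alternatives and in 321 of 6318 with 1 mouse left out, and values moved by at least 1 SD in 3, which were Isg15 with unstranded counts (0.12 for EE against SH control mice and 0.10, from -0.36, for the housing difference of the defeat contrast) and Ifi27 with the granule cell level.

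For defeat, the 1 pathway gene (Ube2l6) fell to 0 with limma, the replicate block, and the granule cell, red cell or endothelial level, and was 0 to 1 with 1 mouse left out, passing in 14 of 54 refits. For EE against SH, the count of 6 became 2 without the low-count filter, 3 with DESeq2 (2 of the 6 and 1 other gene, with no adjusted p for 3 of the 6), 1 with the granule cell level, 0 with the endothelial level and 0 with the oligodendrocyte level, and 1 to 6 with 1 mouse left out. Counts with 1 mouse left out cover all 96 tested pathway genes, not only these 6. Ifi44 passed in 54, Parp14 in 52, B2m in 39, Rtp4 in 28, Phf11d in 17 and Sp100 in 1 of these 54 refits. For EE RES against SH RES mice the count was 0 to 1, with 1 without EE RES mouse 9. Refits with a mouse left out used limma in place of edgeR, so their counts mix the change of test with the loss of a mouse. The causes were not tested, other than the larger number of genes adjusted over without the filter.

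The labels do not say whether replicate numbers pair the mice. The 126 same-numbered pairs had a mean correlation of 0.03, with 32 above 0.1, against a mean of -0.0035 for 1086 other pairs. The share above 0.1 was not measured for the other pairs, so these values cannot exclude a weak pairing. Depth limits genes with few counts, among them Isg15, Usp18, Ifi44 and Phf11d, at 1 to 30 counts per mouse.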
